A study of Mus musculus with 6 samples.

Results

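Secreted BMP and activin antagonists are proteins that bind ligands of the TGF-beta superfamily outside the cell and keep them from their receptors. The group described here holds 9 genes chosen by name: the DAN family members Nbl1 and Grem1, the BMP antagonists Nog, Chrd and Chrdl1, the follistatins Fst and Fstl3, and the ligand-binding proteins Wfikkn1 and Wfikkn2. All 9 were found among the 23594 genes of the deposited table, and all 9 were abundant enough to be among the 20114 genes tested. RNA was measured in apical tissue cut from the furcation development region (FDR) of the first mandibular molar at postnatal day 4.5 (PN4.5), in 3 control and 3 Lhx6-/- libraries of C57BL/6 mice. The controls are labelled wild type, and the Lhx6-/- littermates carried, as the study describes them, the Lhx6-CreER knock-in on both alleles, which disrupts Lhx6 in the whole animal and not in the tooth alone. Laser capture cut the tissue out of stained frozen sections, and tissue from several molars was combined for each library, so each library is a pool. Mice of both sexes were used in the study, and the sex of each pool is not given in the sources used here.

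BMPs signal through paired type I and type II receptors and Smad proteins, and they are needed in the tooth for odontoblast differentiation and for root formation. Noggin, chordin, chordin-like 1 and gremlin bind BMPs directly, follistatin and follistatin-like 3 bind activins most tightly, and the WFIKKN proteins bind myostatin and GDF11. The comparison of Lhx6-/- with control tissue asks which of these antagonists changed when Lhx6, a homeobox factor of the dental mesenchyme, was lost.

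Of the 9 antagonists, 3 were higher in the Lhx6-/- libraries by the study's rule (1.5-fold or more, unadjusted p below 0.05), which 1.58% of all tested genes met in this direction and 3.28% in either direction. These were Wfikkn2, Nbl1 and Grem1. The study itself lists Nbl1 and Wfikkn2 among its most changed genes in these libraries. Because the 9 genes were chosen with earlier results of these data known, the count is not independent of the data. The same 3 were those with an unadjusted p below 0.05, as 9.81% of tested genes had. Wfikkn2 and Nbl1 also passed an adjusted p of 0.05 (edgeR's quasi-likelihood test, Benjamini-Hochberg over all 20114 genes), which 0.403% of tested genes passed in either direction and 0.323% upward. By the fold and p rule 0 of the 9 were lower, beside 1.71% of tested genes. The fitted change was above 0 for 6 of the 9, beside 49.7% of tested genes. The median log2 fold change of the 9 genes was 0.12, beside -0.00 for all tested genes.

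The sequences before the RefSeq start sites of the 3 genes that met the rule are shown because the results turn on these antagonists. They come from RefSeq on GRCm38.p6, which has the same coordinates as mm10, run 5′ to 3′ on the gene's strand, start 250 bases before the RefSeq start site and stop where an annotated exon begins. Capitals mark GGCGCC, a GC-rich element known to be bound by BMP-activated Smads, which begins 179 bases before the start site in Nbl1 and 78 bases before it in Grem1.
Nbl1 (chr4:139092994-139093220, minus strand): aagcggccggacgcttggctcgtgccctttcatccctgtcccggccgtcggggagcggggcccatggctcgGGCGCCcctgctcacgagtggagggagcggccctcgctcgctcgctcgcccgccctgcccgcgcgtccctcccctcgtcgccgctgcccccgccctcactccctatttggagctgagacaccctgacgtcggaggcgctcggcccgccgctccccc
Grem1 (chr2:113758649-113758898, minus strand): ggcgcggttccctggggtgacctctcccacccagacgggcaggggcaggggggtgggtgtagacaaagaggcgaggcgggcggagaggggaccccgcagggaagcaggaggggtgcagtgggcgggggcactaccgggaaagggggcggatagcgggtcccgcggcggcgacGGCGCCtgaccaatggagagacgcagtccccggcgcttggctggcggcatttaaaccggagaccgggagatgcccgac
Wfikkn2 (chr11:94242708-94242829, minus strand): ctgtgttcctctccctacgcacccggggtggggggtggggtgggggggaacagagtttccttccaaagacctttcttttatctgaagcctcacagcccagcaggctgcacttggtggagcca
The Wfikkn2 stretch is shorter because an annotated exon begins inside the window, and it lies within the span the table gives for the gene (94235956 to 94246005), so it is upstream of the RefSeq start site and not of that whole span. RefSeq windows were matched for 6 of the 9 antagonists. GGCGCC, read on both strands, was in 3 of these 6 windows (Nbl1, Grem1 and Chrd) and in 9.59% of all 32851 windows of 250 bases. TAATTA, a core bound by LIM-homeodomain factors, was in 0 of the 6 and in 4.84% of all windows. A match is a description of the letters only, and the same element lay before Chrd, which did not meet the rule, and not before Wfikkn2, which did.

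The DAN family of antagonists shares a cystine knot, and Nbl1 (DAN, the founding member) was by far the most abundant of the 9 genes. Nbl1 lies on chromosome 4 from 139082284 to 139092993 on the minus strand. The 3 control libraries (replicates 1, 2, 3) held it at 114, 99.2 and 97.4 CPM, read counts scaled to library size, and the 3 Lhx6-/- libraries at 201, 183 and 158 CPM. The groups did not overlap, which was the case for 7.86% of all tested genes in this direction. Mean Nbl1 rose from 104 ± 9.17 to 181 ± 21.4 CPM (SD, n = 3 libraries each). On the log2 scale the rise was 0.80 with a standard error (SE) of 0.10 (edgeR adjusted p = 0.00576), or 1.74-fold with a 95% interval of 1.51 to 2.02. By p-value Nbl1 held place 8 of all tested genes.

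Grem1 (gremlin), the other DAN family member of the group and a strong inhibitor of BMP2 and BMP4, was the least abundant per length. It lies on chromosome 2 from 113746164 to 113758646 on the minus strand. The estimated counts were 100, 42 and 50 in control replicates 1 to 3 and 116, 145 and 151 in Lhx6-/- replicates 1 to 3. That is 1.61, 0.63 and 0.85 CPM against 1.90, 1.95 and 2.03 CPM. The 3 Lhx6-/- libraries were close to each other, whereas control replicate 1 stood near them and the other two controls were lower. The SD in control was 0.514 CPM around a mean of 1.03 (n = 3), well over the 12.5% of the mean that counting error gives, whereas in Lhx6-/- tissue it was 3.37% of the mean, below the 8.53% of counting error. The log2 difference was 0.93 with an SE of 0.36 (edgeR unadjusted p = 0.0222, adjusted p = 0.399), so the gene met the fold and p rule and did not pass the adjustment over all tested genes. Without control replicate 1 the log2 fold change was 1.41 and without control replicate 2 it was 0.67, and Grem1 no longer met the rule without control replicate 2, control replicate 3, Lhx6-/- replicate 2 or Lhx6-/- replicate 3. Its adjusted p from edgeR, DESeq2 or limma exceeded 0.05 in all 18 alternative fits (0.121 to 0.949).

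**Figure D1:**
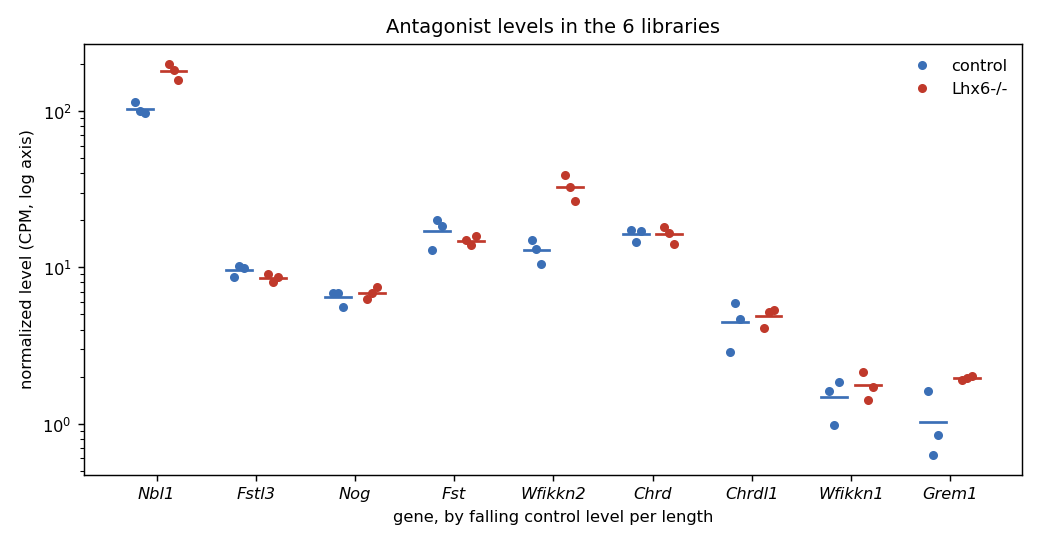
Normalized level (CPM, log axis) of each antagonist in the 3 control (blue) and 3 Lhx6-/- libraries (red), 1 point per library and a line at the group mean, with genes ordered by their control level per length. The groups do not overlap for Nbl1, Wfikkn2 and Grem1 and overlap for the other 6 genes.

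Wfikkn2 changed most of the 9. It encodes a secreted protein with several protease-inhibitor-like domains that binds myostatin and GDF11, and lies on chromosome 11 from 94235956 to 94246005 on the minus strand. Control libraries held 14.9, 13.2 and 10.4 CPM of Wfikkn2 and Lhx6-/- libraries 38.9, 32.5 and 26.6 CPM. The lowest Lhx6-/- library stood above the highest control library. Mean Wfikkn2 rose from 12.8 ± 2.24 to 32.7 ± 6.17 CPM (SD, n = 3 each), by 1.35 on the log2 scale with an SE of 0.16 (edgeR adjusted p = 0.00879), which is 2.54-fold with a 95% interval of 1.99 to 3.26. Among the 9 genes it was the only one to reach 2-fold with an unadjusted p under 0.05.

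Its paralog Wfikkn1, on chromosome 17 from 25877628 to 25880858 on the minus strand, did not meet the rule. Wfikkn1 stood at 1.62, 0.99 and 1.84 CPM in the control and 2.13, 1.42 and 1.72 CPM in the Lhx6-/- libraries, with overlapping groups. The log2 fold change was 0.24 (95% interval -0.44 to 0.93, adjusted p = 0.883 from edgeR), which includes a rise of 1.5-fold. Per exon length, Wfikkn2 was 6.08, 8.85 and 3.75 times Wfikkn1 in the control libraries and 12.1, 15.1 and 10.3 times in the Lhx6-/- libraries. The ratio was thus higher in every Lhx6-/- library, with a log2 difference of 1.07 (two-sided exact permutation test, p = 0.1, the smallest that 3 libraries against 3 allow; adjusted p = 0.3 over 3 ratios).

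The follistatins had fitted changes below 0 that did not meet the rule. Fst (follistatin), on chromosome 13 from 114452290 to 114458951, stood at 12.9, 19.98 and 18.5 CPM in the control and 14.9, 13.8 and 15.8 CPM in the Lhx6-/- libraries, so control replicate 1 was the lowest of all 6 and the groups overlapped. Its log2 fold change was -0.21 (95% interval -0.53 to 0.11, adjusted p = 0.723 from edgeR), and -0.37 without control replicate 1 (unadjusted p = 0.00642, adjusted p = 0.197 from edgeR). Without control replicate 2 it was -0.08 and without control replicate 3 it was -0.15 (edgeR unadjusted p = 0.596 and 0.396). Fstl3, on chromosome 10 from 79777272 to 79782630, averaged 9.59 ± 0.86 CPM in control against 8.60 ± 0.49 CPM in Lhx6-/- libraries (SD, n = 3 each). Its log2 fold change was -0.16 (95% interval -0.43 to 0.12, adjusted p = 0.770 from edgeR). Neither interval reaches 1.5-fold in either direction. The ratio of Fst to Fstl3 per exon length averaged 0.943 ± 0.129 (SD, n = 3) in control and 0.918 ± 0.044 (SD, n = 3) in Lhx6-/- libraries (two-sided exact permutation p = 0.9, adjusted p = 0.9 over 3 ratios).

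The classical BMP antagonists Nog and Chrd had intervals close around 0. Nog (noggin), a gene of a single exon on chromosome 11 from 89300638 to 89302332, averaged 6.45 ± 0.78 CPM in control against 6.85 ± 0.60 CPM in Lhx6-/- libraries (SD, n = 3 each), which overlapped. Its log2 fold change was 0.09 (95% interval -0.25 to 0.42, adjusted p = 0.921 from edgeR). Chrd (chordin), on chromosome 16 from 20733127 to 20742384, averaged 16.3 ± 1.51 CPM in control against 16.3 ± 2.08 CPM in Lhx6-/- libraries (SD, n = 3 each). Its log2 fold change was -0.01 (95% interval -0.26 to 0.25, adjusted p = 0.993 from edgeR). For both genes the interval excludes a change of 1.5-fold in either direction. Chrdl1 (chordin-like 1), on chromosome X from 143285674 to 143394262, was more variable, at 2.89, 5.88 and 4.67 CPM in the control and 4.09, 5.16 and 5.35 CPM in the Lhx6-/- libraries. Control replicate 1 was again apart, here the lowest, and the log2 fold change was 0.12 (95% interval -0.41 to 0.65, adjusted p = 0.935 from edgeR), turning to -0.11 without that library.

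**Figure D2:**
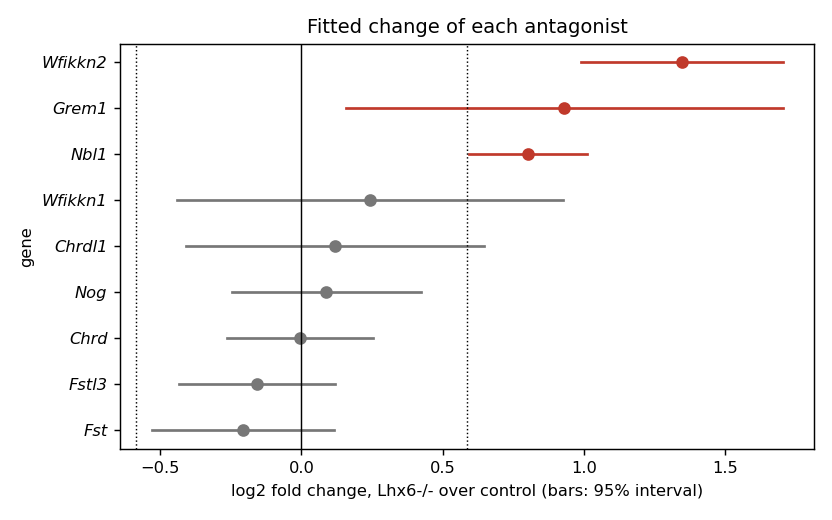
Fitted log2 fold change of each antagonist in Lhx6-/- over control tissue, with its 95% interval from edgeR. Red marks Wfikkn2, Grem1 and Nbl1, which met the fold and p rule, dotted lines mark 1.5-fold in each direction, and the intervals of the 6 grey genes include 0.

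Levels of different genes can be compared only per length, so CPM was divided by the length of the merged exons in kilobases. In control tissue Nbl1 stood at 50.9 ± 4.51 CPM per kilobase (SD, n = 3), above all other members without overlap and above 97.6% of the genes with a length. Fstl3, Nog, Fst, Wfikkn2 and Chrd followed between 3.92 and 2.61 CPM per kilobase, and each neighbor in that order overlapped the next. Chrdl1 and Wfikkn1 overlapped each other at 0.663 and 0.585 CPM per kilobase, and Grem1 was below both at 0.248 CPM per kilobase. In Lhx6-/- tissue Wfikkn2 moved from the fifth place to the second, at 8.54 ± 1.61 CPM per kilobase (SD, n = 3), with no overlap with Nog, the third at 4.04 ± 0.36 CPM per kilobase (SD, n = 3).

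Summed over the 9 antagonists, the level per kilobase was 74.6, 68.6 and 66.3 in the control libraries and 124, 113 and 100.3 in the Lhx6-/- libraries. Nbl1 made up 72.9 ± 2.09% of this sum in control and 78.8 ± 1.12% in Lhx6-/- tissue (SD, n = 3 each), so the sum mostly followed Nbl1. The other 6 genes that did not meet the rule summed to 15.3 ± 0.99 CPM per kilobase in control and 14.8 ± 0.46 in Lhx6-/- tissue (SD, n = 3 each), with overlapping groups.

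The other genes of the pathway were counted in 6 lists, written with earlier results of these data known. Together they held 75 tested genes, of which 1 was higher and 1 was lower by the fold and p rule and 73 did not meet it. The share that met it was 2.67%, near the 3.28% of all tested genes. An unadjusted p below 0.05 was held by 7 of the 75 (Bmp2, Bmp6, Fbn1, Gdf11, Gdf6, Id4 and Msx2), beside 9.81% of tested genes. Bmp6 and Fbn1 were higher by 0.39 and 0.30 on the log2 scale, without overlap (edgeR unadjusted p = 0.00216 and 0.00345, adjusted p = 0.179 and 0.219). By the fold and p rule 1 of 12 tested BMP ligands rose and 1 was lower. Bmp2, a ligand that gremlin and noggin bind, stood at 23.8, 26.8 and 20.1 CPM in the control and 41.2, 37.8 and 41.1 CPM in the Lhx6-/- libraries, without overlap (log2 difference 0.76, SE 0.10, edgeR adjusted p = 0.00879). Gdf6, a BMP-related ligand of joint and skeletal patterning, averaged 1.45 ± 0.36 CPM in control against 0.62 ± 0.25 CPM in Lhx6-/- libraries (SD, n = 3 each), a log2 difference of -1.22 with an SE of 0.40 (edgeR unadjusted p = 0.00976, adjusted p = 0.299). With the Y-linked level as a covariate neither met the rule, Bmp2 at a log2 difference of 0.56 and Gdf6 at -0.61 (edgeR unadjusted p = 0.00166 and 0.302). In that fit Lhx6, the disrupted gene itself, did not meet the rule either, at a log2 difference of -0.58 (edgeR unadjusted p = 0.00529). The adjusted p of Bmp2 from edgeR, DESeq2 or limma was over 0.05 in 4 of 18 alternative fits (2.68e-08 to 0.0647). Bmp2 is also among the most changed genes that the study lists. The ligands with the highest level per length, Bmp4 and Bmp7, had log2 fold changes of -0.03 (95% interval -0.21 to 0.15) and 0.08 (95% interval -0.11 to 0.26).

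None of the 8 tested activin and GDF ligands met the rule. Gdf11, a ligand of the WFIKKN proteins, averaged 18.9 ± 0.71 CPM in control against 22.3 ± 1.96 CPM in Lhx6-/- libraries (SD, n = 3 each), with a log2 fold change of 0.24 (unadjusted p = 0.0259, adjusted p = 0.420 from edgeR). Inha, the inhibin alpha subunit, was the most abundant per length, with a log2 fold change of 0.20 (95% interval -0.08 to 0.47). None of 15 receptors and coreceptors met the rule, with fitted changes above 0 for 13 and below 0 for 2 (median 0.11 on the log2 scale). Among them Eng and Neo1 were the most abundant per length, with log2 fold changes of 0.17 (95% interval -0.02 to 0.36) and 0.14 (95% interval -0.00 to 0.28). None of 10 Smad and Smurf genes met it, with a median of 0.06, and Smad3 and Smad6 were at 0.08 and 0.06.

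The genes that BMP signaling is known to induce did not meet the rule either, in 0 of 15 cases, with fitted changes above 0 for 10 and below 0 for 5 (median 0.03 on the log2 scale). Id4 and Msx2, 2 of the 15, had unadjusted p below 0.05, as 9.81% of tested genes had, with changes under 1.5-fold. Groups did not overlap for 3 of the 15 (Id4, Msx2 and Atoh8), beside 15.5% of tested genes in either direction. Atoh8 was higher, by 0.20 on the log2 scale (edgeR unadjusted p = 0.0775, adjusted p = 0.588). Id4 had a log2 difference of -0.36 (SE 0.11, edgeR unadjusted p = 0.00814, adjusted p = 0.285) and Msx2 one of -0.24 (SE 0.07, edgeR unadjusted p = 0.00798, adjusted p = 0.284). The summed level of the 15 genes per kilobase was 396 ± 8.09 in control and 398 ± 16.6 in Lhx6-/- tissue (SD, n = 3 each). Id3, a direct BMP target, and Sp7, an osteoblast and odontoblast factor, had the highest levels per length and log2 fold changes of 0.03 (95% interval -0.11 to 0.18) and 0.06 (95% interval -0.11 to 0.23). Receptors and coreceptors summed to 89.8 ± 1.46 CPM per kilobase in control against 97.3 ± 1.42 in Lhx6-/- libraries (SD, n = 3 each), and the other modulators to 331 ± 9.49 against 353 ± 11.8, both without overlap. These sums hold every gene of a list with an exon length, tested or not. For the modulators the gap was narrow, 337.7 in control replicate 2 against 339.5 in Lhx6-/- replicate 2, and Fstl1 alone averaged 140.4 in control against 157.8 in Lhx6-/- libraries. In the list of other extracellular modulators 0 of the 18 tested genes counted here met the rule. Fstl1 and Bmp1, the protease that cuts chordin, were the most abundant modulators per length, with log2 fold changes of 0.17 (95% interval -0.00 to 0.34) and 0.03 (95% interval -0.15 to 0.21).

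**Figure D3:**
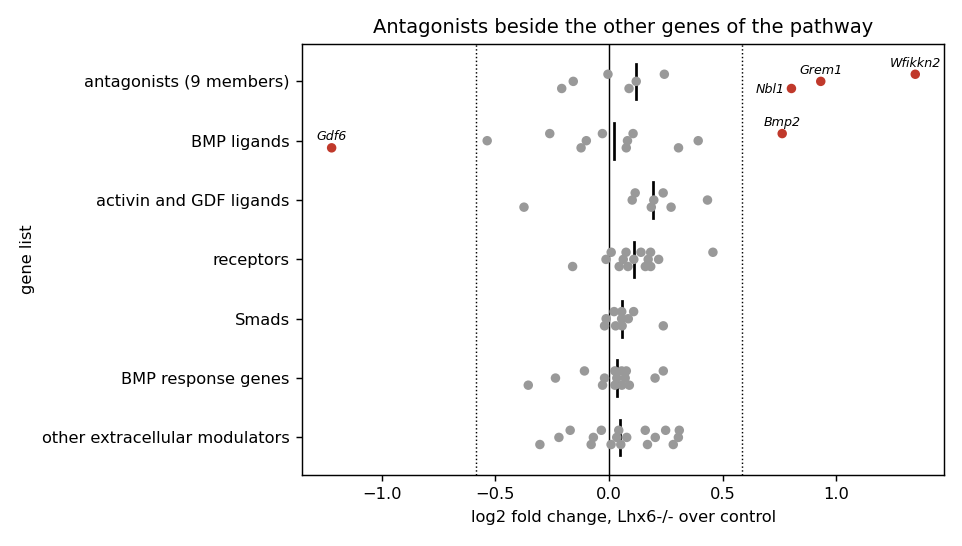
Log2 fold change in Lhx6-/- over control tissue of the tested antagonists and of the genes counted in 6 pathway lists, 1 point per gene, with a black bar at each list's median. Red points with names met the fold and p rule (dotted lines at 1.5-fold): 3 antagonists, Bmp2 and Gdf6.

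The genes whose log2 CPM followed the 3 antagonists most closely over the 6 libraries, among 15112 genes of at least 1 CPM, were found by Pearson's r, as a description of 6 points that form 2 groups. For Nbl1 they were Esrrb, Matn4 and Osr2 (r = 0.997, 0.997 and 0.996), and 146 genes had an r over 0.95. For Wfikkn2 they were Ece1, Pitpnc1 and Matn4 (r = 0.997, 0.995 and 0.995), and for Grem1 they were Fam189a1, Gm16701 and Npas3 (r = 0.993, 0.988 and 0.988). Matn4, a matrilin of the extracellular matrix, was thus shared by Nbl1 and Wfikkn2, at 72.7 CPM in control and 123 CPM in Lhx6-/- tissue. Matn4 and Osr2 are also among the most changed genes that the study lists.

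Several facts of the libraries stand beside these results. Total estimated counts ran from 60132323 to 76157433, with medians of 62315646 in control and 71394061 in Lhx6-/- libraries. Lhx6 itself averaged 22.6 ± 4.83 CPM in control against 11.05 ± 1.57 CPM in Lhx6-/- libraries (SD, n = 3 each), without overlap, so part of the transcript was still counted. Dental mesenchyme markers had fitted changes above 0 for 7 of 8 genes, with 0 meeting the rule, and their summed level was 1355 to 1417 CPM in control against 1513 to 1535 CPM in Lhx6-/- libraries, without overlap. Odontoblast markers had fitted changes above 0 for 4 of 6 genes and below 0 for 2 (log2 -0.30 to 0.33), with 0 meeting the rule. They summed to 7804 to 8270 against 8510 to 9507 CPM, also without overlap. In all libraries 7 enamel genes held 11.5% to 14.6% of the counts, so RNA of enamel epithelium was present too. Dental epithelial markers were lower in Lhx6-/- libraries for 13 of 13 genes, 6 of them by the fold and p rule, with summed levels of 1618 to 2487 CPM in control and 1181 to 1362 CPM in Lhx6-/- libraries. Blood markers were lower for 7 of 7 genes (3037 to 3765 against 1610 to 2405 CPM). Pericyte and smooth muscle markers were higher for 6 of 7 genes (409 to 453 against 549 to 658 CPM) and endothelial markers for 8 of 8 (292 to 304 against 338 to 391.7 CPM). None of these markers was at 0 in any library. The 4 Y-linked genes summed to 14.6 to 57.95 CPM in control and 55.1 to 92.1 CPM in Lhx6-/- libraries. Of 5 X-linked genes all had fitted changes below 0, with sums of 739.8 to 1112 against 269.7 to 573.2 CPM that did not overlap, and Eif2s3x passed the adjustment (edgeR adjusted p = 0.0376), so the sex-linked level of the pools moved with genotype. In bulk tissue, fewer cells of a type and less RNA per cell cannot be told apart.

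**Figure D4:**
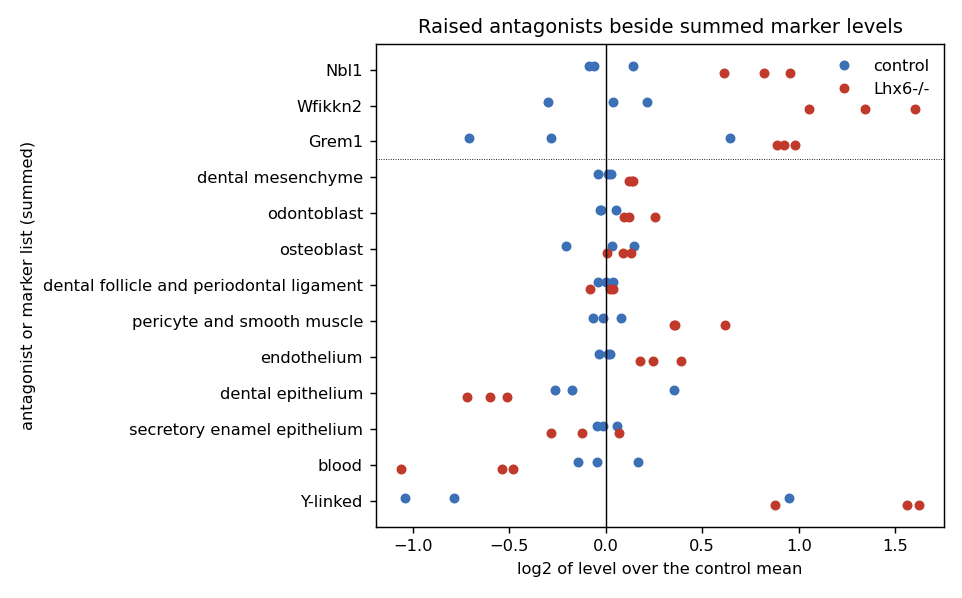
Log2 of each library's level over the control mean, for the 3 antagonists that met the rule and for summed marker lists, with 3 control (blue) and 3 Lhx6-/- (red) libraries per line. The summed dental epithelial and blood markers are lower, and the summed pericyte and endothelial markers higher, in each Lhx6-/- library than in each control library, and the follicle, osteoblast and enamel lists overlap.

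With the dental epithelial level as a covariate, the log2 fold change was 1.25 for Wfikkn2 and 0.65 for Nbl1, both still within the fold and p rule (edgeR unadjusted p = 0.00371 and 0.000653), and their adjusted p from edgeR was 0.306 and 0.1695. In that fit Grem1 had a log2 fold change of 0.21 (edgeR unadjusted p = 0.691) and did not meet the rule. With the Y-linked level as a covariate, the log2 fold change was 1.42 for Wfikkn2, 0.94 for Nbl1 and 1.73 for Grem1, with adjusted p of 0.0655, 0.00876 and 0.158 from edgeR. Lhx6 itself was at -1.04 on the log2 scale in the reported fit, -0.58 with the Y-linked and -1.51 with the epithelial covariate. The part of the pericyte, endothelial and blood markers in the change of the 3 antagonists was not tested. Over all 18 alternative fits the log2 fold change ran from 1.20 to 1.48 for Wfikkn2 and from 0.65 to 0.94 for Nbl1, and both met the fold and p rule in each. The adjusted p from edgeR, DESeq2 or limma was over 0.05 in 3 of them for Wfikkn2 (3.09e-14 to 0.306) and in 2 for Nbl1 (2.54e-12 to 0.1695). Besides the covariate fits named above, it was 0.0528 for Wfikkn2 without control replicate 2 and 0.0697 for Nbl1 without control replicate 3, from edgeR.

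**Figure D5:**
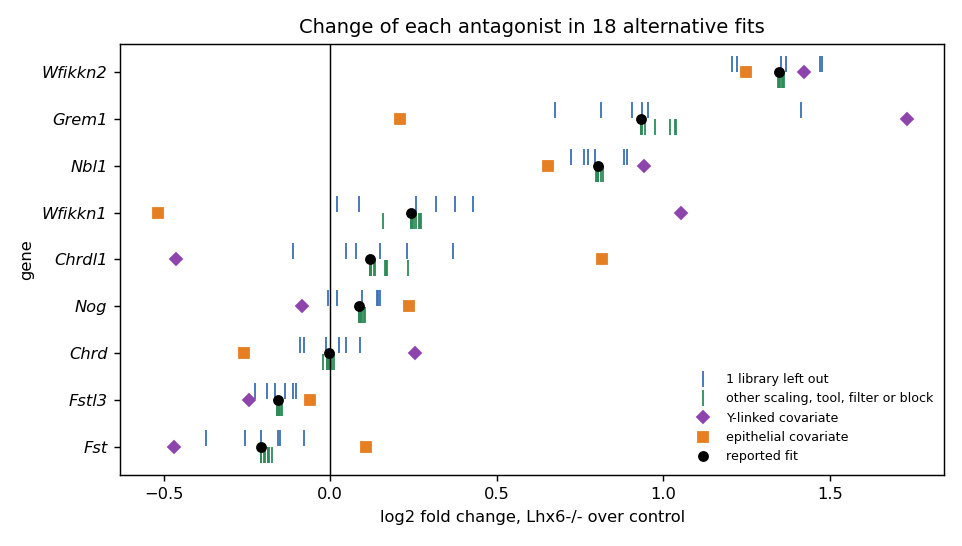
Log2 fold change of each antagonist in the reported fit (black), with 1 library left out (blue), with another scaling, tool, filter or block (green), and with an epithelial (orange) or Y-linked (purple) covariate. Wfikkn2, Nbl1 and Grem1 stay above 0 in all 18 alternatives, whereas Wfikkn1, Chrdl1, Nog, Chrd and Fst cross 0.

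Strand use in the authors' counting is not given in the sources used here. Chrd overlaps Thpo, Fst overlaps Gm47040, Fstl3 overlaps Prss57 and Wfikkn1 lies within Gm26694, each on the opposite strand in GENCODE vM21. The overlaps are of gene spans, part of the span for Chrd, Fst and Fstl3, and shared exons were not looked for. Without strand, reads from any shared exon stretch cannot be told apart, and to that extent these 4 levels are uncertain. No annotated gene overlaps Nbl1, Grem1, Nog, Chrdl1 or Wfikkn2.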

How the data were processed

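RNA-seq libraries of laser-captured apical FDR tissue (3 control, 3 Lhx6-/-, single-end reads of 75 cycles) were analysed. Reads were trimmed and mapped to mm10 by the authors (STAR 2.6.1d), who deposited estimated counts per gene, not normalized, in which every gene reaches 10 in some library; the gene counter is not given in the sources used here. The deposited table of the authors' own comparison (ratios, fold changes, p-values) was used only for gene names, coordinates and, through its group means, the order of the genes, which held for all 23594 (largest relative deviation 8.56e-08). Of 23061 genes with the annotation's start, 22973 ended 1 base past its end, so 1 was subtracted from every end.

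Counts were rounded and scaled by TMM, and tested with edgeR 4.0.16 (quasi-likelihood, robust dispersion, default filter, genotype alone, two-sided) in R 4.3.3 over 20114 genes. The fold and p rule is that of the study's methods. Standard errors are the log2 fold change over the square root of F, and 95% intervals use the fit's degrees of freedom. Nothing in the labels says that libraries came from separate litters, so p-values measure the spread between these pools. Exon lengths are from GENCODE vM21. Of the alternatives, DESeq2 1.42.0 and limma 3.58.1 were run beside other scalings, filters, covariates, a fit blocked by replicate number and fits without each library. The code was tested on simulated counts. Of the list of other modulators, 1 gene is not reported here and is left out of its counts. The members and lists were chosen with earlier results of these data known. Named genes were Lhx6, the members, pathway genes that met the rule or had an adjusted p under 0.05, the 2 most abundant per length of each list, and the 3 genes most like each member that met the rule. Overlapping genes were named for their position, and Atoh8, Bmp6, Fbn1, Gdf1, Id4, Inhbb, Msx2, Tll2 and Eif2s3x after their values were seen.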

Additional observations from a re-analysis of the deposited data

How the results depend on the processing

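The count of antagonists that met the fold and p rule was 3 in the reported fit and between 2 and 4 in every alternative with these thresholds, and 1 (Wfikkn2) at 2-fold. It was 2 to 3 when 1 library was left out, without control replicate 2 or 3 or Lhx6-/- replicate 2 or 3 losing Grem1. The 2 pathway genes that met it became 1 with an adjusted p under 0.05, and 2 to 4 when 1 library was left out. There were 4 without control replicate 1 (Bmp2, Gdf1, Gdf6 and Tll2). Every count above 2 with 1 library left out included Tll2, which was not among the 75 genes tested in the reported fit. With the Y-linked covariate the count was again 2, but Bmp6 and Inhbb in place of Bmp2 and Gdf6. Over the 9 antagonists the median change (log2) was 0.26 with the Y-linked and 0.21 with the epithelial covariate and 0.09 to 0.15 when 1 library was left out. Signs turned for genes near 0. With the Y-linked covariate Nog was at -0.085, Chrd at 0.26 and Chrdl1 at -0.46, and with the epithelial covariate Fst was at 0.11 and Wfikkn1 at -0.52. Chrd was at 0.0039 with upper-quartile and 0.0125 with total-count scaling, and -0.092 to 0.090 when 1 library was left out, where Nog ran from -0.0080 to 0.15 and Chrdl1 from -0.11 to 0.37. The causes were not tested.

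In its methods the study speaks of 3 pairs of samples, and the labels do not say which libraries form a pair. The reported fit was not paired. Residuals of libraries numbered alike in the sample titles correlated at 0.128, -0.0893 and -0.148. This does not settle whether the libraries were paired, since the title numbers need not mark the pairs. The table's own row names number the Lhx6-/- libraries 2, 3 and 4, and pairing by those was not tested. With a replicate block 3 antagonists met the rule, as without it, and 652 genes did over the whole table, beside 660; genes with an adjusted p under 0.05 numbered 134, beside 81. Genes of few counts, Grem1 and Wfikkn1 above all, are limited by counting error as well as by the spread between 3 libraries. Over all genes, an adjusted p under 0.05 was reached by 9 with the epithelial covariate, 12 without control replicate 3 and 359 with the Y-linked covariate.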

Other observations

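In the fits with a covariate, 2 further antagonists met the fold and p rule. Of all tested genes, 6.17% met it with the Y-linked and 4.08% with the epithelial covariate, beside 3.28% in the reported fit. Wfikkn1 had a log2 fold change of 1.05 with the Y-linked covariate (unadjusted p = 0.0414, adjusted p = 0.287 from edgeR, 0.287 to 0.996 over the 18 alternatives), and Chrdl1 one of 0.81 with the epithelial covariate (unadjusted p = 0.0243, adjusted p = 0.512 from edgeR, 0.512 to 0.998). Each changed sign under the other covariate. With 6 libraries, a fit of genotype and 1 covariate leaves few degrees of freedom.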
